A study of Homo sapiens with 33 samples.

Results

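OVCAR4 is an established human cell line of high-grade serous ovarian carcinoma (HGSOC), and OVCAR4 ResA is one derivative of it that was selected for cisplatin resistance. Messenger RNA of the 2 lines was compared in 6 libraries, 3 of OVCAR4 ResA and 3 of parental OVCAR4, out of 33 libraries in the series. The 6 libraries were chosen by their line labels alone, and no measured value entered the choice. The 3 libraries of OVCAR4 ResB, a second derivative selected independently from the same parent, were used only to show where ResA differed from it.

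Per the study's methods, ResA was made by repeated short cisplatin exposures with recovery between them and a dose that was raised stepwise. The methods add that resistant cells were not kept in drug, and the labels record none for any of the 6 libraries. Both lines share the OVCAR4 background, and neither the labels nor the methods name a transgene in them. ResA is 1 selected line, and whether it arose from 1 cell is not stated, so a difference from OVCAR4 is a property of this derivative and may come from selection, drift or passage, which cannot be told apart here. The labels do not say whether the 3 replicates of a line were separate cultures, so the p-values measure the spread between these libraries.

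Cisplatin kills cells by binding DNA and forming adducts that block replication and transcription. Reduced uptake, export, thiol conjugation, DNA repair and a blunted death response are the classical routes by which a cell tolerates it. HGSOC lines are epithelial and usually express the Müllerian transcription factor PAX8, the adhesion molecule EPCAM and simple keratins.

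Values for single genes are normalised read counts, meaning expected counts divided by a library size factor, and are listed in the order of replicates 1, 2 and 3. Fold changes are log2 differences of ResA minus OVCAR4 with their standard errors (SE). A gene was called when its DESeq2 Benjamini-Hochberg adjusted p was under 0.05. Levels of different genes are compared only in TPM, a transcript abundance that is scaled by gene length and by library.

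Library totals ran from 22640730 to 33369472 expected counts. Mitochondrial ribosomal RNA took 5.18%, 14.8% and 12.0% of counts in OVCAR4 and 9.23%, 2.02% and 2.09% in ResA, so its share moved with the line in replicates 2 and 3 and against it in replicate 1. The spread among libraries of a line exceeded that of counting, since chi-square divided by its degrees of freedom was 47.4 to 396. The epithelial markers summed to 3151 to 3801 TPM in OVCAR4 and 4189 to 4513 TPM in ResA, and PAX8, EPCAM, KRT7 and KRT8 were above 45 TPM in each of the 6 libraries. WT1 was below 1 TPM in all 6 libraries apart from ResA replicate 1, at 5.91 TPM. Of the markers of other cell types, 9 of 10 immune, 7 of 7 endothelial, 7 of 10 fibroblast and 5 of 6 mesothelial genes were under 1 TPM in every library. The mesothelial marker UPK3B was at 26.6 to 41.2 TPM in OVCAR4 and 21.6, 65.1 and 62.8 TPM in ResA, and the fibroblast marker LUM and the endothelial marker VWF, the latter under 1 TPM, were called higher.

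ResA replicate 1 stood apart from the other ResA libraries. Among the 11059 genes whose normalised counts averaged 100 or more, 156 were over 4-fold higher in ResA replicate 1 than in both other ResA libraries, against 0 for replicate 2 and 3 for replicate 3. Genes characteristic of other lines of the series were present in it. Of 15 genes that were under 1 TPM in every OVCAR4 and ResB library and at 100 TPM or more in the PEO1 line, all 15 reached 1 TPM in ResA replicate 1 and none did in the other ResA libraries, with medians of 6.79, 0.115 and 0.044 TPM. The corresponding genes of the PEO4 line numbered 18, and all 18 showed the same. ANPEP, for example, was at 17.9 TPM in ResA replicate 1 and at 0 and 0.0172 TPM in the others, and SPOCK2 was at 57.0 TPM against 0.597 and 0.691 TPM. The PEO6 line gave 15 of 21 such genes, PEA2 3 of 10, OVCAR3 3 of 5 and OVCAR3 ResA 4 of 6, and the median level of the genes in their own line was 141 TPM for PEO1 and 150 TPM for PEO4. ResB replicate 1 was the nearest library to ResA replicate 1, and 67 of the 156 genes were also over 4-fold above both other ResB libraries there, against 0.841% of genes. The direct test of ResB against ResA therefore includes a library of each line that stood apart.

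Of 14993 genes with an adjusted p, 1784 were called, which is 11.9% of those tested. The calls comprised 1002 higher in ResA (6.68%) and 782 lower (5.22%). The 3 ResA libraries lay entirely above or below the 3 OVCAR4 libraries in both normalised counts and TPM for 1581 of the called genes (88.6%), and for 24.3% of all tested genes. A narrower group of 191 genes, 1.27% of those tested, was called again in the same direction whichever replicate number was left out, had a mean of at least 100 and did not overlap between the lines. These 191 are termed steady genes below, and 110 of them were higher and 81 lower in ResA. Without ResA replicate 1 and without the replicate term in the model, 6413 genes were called, against 3462 with that library and without the term. By edgeR's quasi-likelihood test the comparison gave 219 calls in all, 137 higher and 82 lower, and 136 of the steady genes were among them.

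The largest steady increases were in a secreted protease, cell-surface and matrix proteins, and an enzyme of tryptophan breakdown. KLK5, a secreted kallikrein serine protease, had normalised counts of 5.85, 1.55 and 6.21 in OVCAR4 and 569, 251 and 180 in ResA (log2 6.12, SE 0.67, DESeq2 adjusted p = 2.38e-17). It was nearly silent in every parental library, and each ResA library was far above them.

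MACROD2, which encodes an enzyme that removes mono-ADP-ribose from proteins, had 94.5, 85.4 and 37.2 counts in OVCAR4 and 3828, 3230 and 3522 in ResA (log2 5.69, SE 0.38, adjusted p = 1.15e-46). FLRT3, a leucine-rich repeat adhesion protein, is nested within the MACROD2 locus on chromosome 20 and had 15.1, 7.77 and 9.93 counts in OVCAR4 and 101, 310 and 313 in ResA (log2 4.29, SE 0.62). Because the strand setting of the counting was not stated, reads of the 2 overlapping genes cannot be fully separated. APOL1, a secreted apolipoprotein that lyses trypanosomes, had 124, 123 and 85.6 counts in OVCAR4 and 5572, 4753 and 5474 in ResA (log2 5.59, SE 0.32, adjusted p = 5.04e-63). Its neighbour on chromosome 22, APOL2, had 147, 144 and 133 counts against 1342, 1181 and 1221 (log2 3.14, SE 0.32). The ranges of the lines were far apart for both apolipoprotein genes, and the ResA libraries differed little among themselves.

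IDO1, the enzyme that starts the conversion of tryptophan to kynurenine, had 19.2, 14 and 14.9 counts in OVCAR4 and 532, 548 and 453 in ResA (log2 4.98, SE 0.43, adjusted p = 9.03e-28). FREM1, a basement membrane protein, had 22.6, 7.77 and 8.69 counts in OVCAR4 and 803, 578 and 531 in ResA (log2 5.68, SE 0.47). PTPRM, a receptor tyrosine phosphatase at cell contacts, had 41.8, 18.6 and 17.4 counts against 897, 1155 and 1061 (log2 5.38, SE 0.45). For these 3 genes every ResA library lay well above every parental library.

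IGFBP7, a secreted protein that binds insulin-like growth factors, was already present in OVCAR4 at 430, 266 and 171 counts and stood at 5294, 6244 and 5260 in ResA (log2 4.37, SE 0.36, adjusted p = 2.74e-30). PLCH1, a phospholipase C, rose by 5.40 on the log2 scale and PPP2R2C, a regulatory subunit of protein phosphatase 2A, by 4.82. DCAF12L1 (log2 5.54), MORC4 (4.83) and KIF26B, a kinesin (4.78), were also among the 15, each with its lowest ResA value in replicate 1. LHX1, a LIM homeobox factor of kidney and Müllerian duct development, had 15.9, 7.77 and 1.24 counts in OVCAR4 and 385, 104 and 110 in ResA (log2 4.68, SE 0.66), so its highest value was in the ResA library that stood apart. LHX1 reached 27.6 TPM in the PEO lines.

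**Figure D1:**
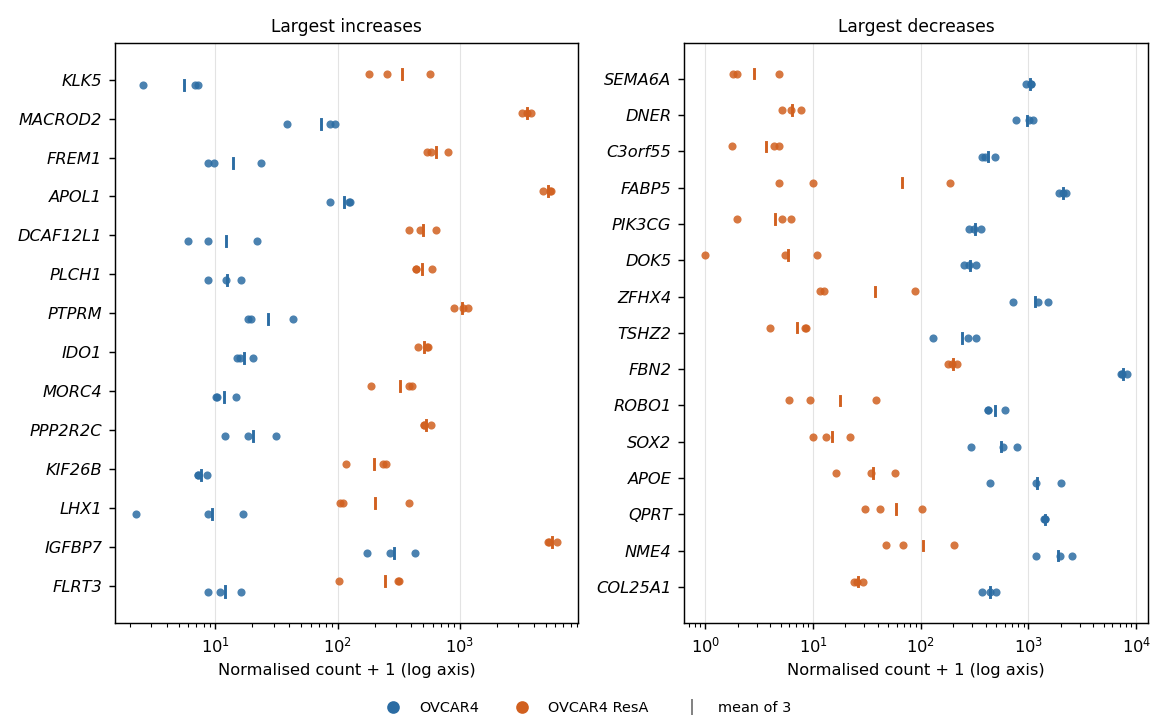
Normalised count plus 1 on a log axis for 14 of the 15 largest increases and the 15 largest decreases among steady genes, with a point for each library of OVCAR4 and OVCAR4 ResA and a bar for the mean of 3. The lines do not overlap for any gene; FABP5, ZFHX4 and ROBO1 each have 1 ResA point, replicate 1, over 4-fold above the other ResA points.

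The largest decreases left several genes with almost no counts in ResA. SEMA6A, a transmembrane semaphorin, had 952, 1064 and 1055 counts in OVCAR4 and 0.962, 0.826 and 3.79 in ResA (log2 -9.11, SE 0.69, adjusted p = 1.61e-36). DNER, a neuronal transmembrane protein with Notch-like repeats, had 763, 1106 and 1019 counts in OVCAR4 and 6.73, 4.13 and 5.31 in ResA (log2 -7.48, SE 0.50). Neither gene had more than a handful of counts in any ResA library.

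PIK3CG, the gamma catalytic subunit of PI3-kinase, had 360, 280 and 314 counts in OVCAR4 and 0.962, 4.13 and 5.31 in ResA (log2 -6.53, SE 0.65, adjusted p = 3.19e-21). C3orf55, now named SLC66A1LP, had 391, 371 and 488 counts against 3.85, 3.31 and 0.758 (log2 -7.36, SE 0.68). DOK5, a docking protein for receptor tyrosine kinases, had 250, 328 and 282 counts against 0, 9.92 and 4.55 (log2 -6.17, SE 0.68). For all 3 genes the parental libraries were within a narrow range and the ResA libraries were near 0.

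FBN2, a fibrillin of elastic microfibrils, had 8156, 7218 and 7406 counts in OVCAR4 and 179, 194 and 218 in ResA (log2 -5.27, SE 0.30, adjusted p = 2.39e-66). SOX2, a transcription factor of stem and progenitor cells, had 289, 789 and 575 counts in OVCAR4 and 21.2, 9.09 and 12.1 in ResA (log2 -5.24, SE 0.54, adjusted p = 2.95e-19). SOX2 lies within the non-coding gene SOX2-OT, and their reads are not separated with certainty. APOE, the lipid carrier, had 442, 1984 and 1184 counts against 56.8, 33.9 and 15.2 (log2 -5.09, SE 0.58). OVCAR4 replicate 1 was the lowest parental library for SOX2 and APOE, yet stayed above every ResA library.

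QPRT, which turns quinolinate from tryptophan breakdown into an NAD precursor, had 1407, 1426 and 1431 counts in OVCAR4 and 102, 41.3 and 29.6 in ResA (log2 -4.82, SE 0.43, adjusted p = 1.91e-26). The first enzyme of that route, IDO1, was higher in ResA, as given above. Decreases also met NME4, a mitochondrial nucleoside diphosphate kinase (log2 -4.44), COL25A1, a membrane collagen (-4.09), and TSHZ2, a zinc finger factor (-5.30).

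In 3 further decreases ResA replicate 1 was over 4-fold above the other ResA libraries. FABP5, a fatty acid binding protein, had 1903, 2100 and 2212 counts in OVCAR4 and 184, 9.09 and 3.79 in ResA (log2 -6.95, SE 0.76). It was at 421 TPM in the PEO line where it was highest. ZFHX4, a zinc finger homeobox factor, had 86.6, 11.6 and 10.6 counts in ResA, and ROBO1, a receptor for SLIT guidance proteins, had 37.5, 4.96 and 8.34, against at least 713 and 422 in any OVCAR4 library. By edgeR, 26 of the 30 genes with the largest changes were called, and FABP5 (adjusted p = 0.0775), ZFHX4 (0.0634), APOE (0.0542) and NME4 (0.0553) were not.

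Gene lists of pathways and cell states, 34 in all, were then counted against the background of 6.68% of genes called higher and 5.22% called lower. Other fits have other backgrounds, beside which their list counts are to be read. Without ResA replicate 1 and the replicate term, 3194 genes were higher and 3219 lower of 16326. By edgeR 137 were higher and 82 lower of 14259. Leaving out replicate 2 gave 231 and 150 of 15046, and leaving out replicate 3 gave 177 and 115 of 15078. The median log2 fold change of all tested genes was -0.01. On the TPM scale that median was 0.44, so medians of lists on that scale are given less this shift. With the mitochondrial ribosomal RNA share in the model in place of the replicate term, the HOX median changed sign from -0.46 to 0.43. Cell cycle (0.06 to -0.39), BCL2 family (0.22 to -0.13), homologous recombination (0.16 to -0.11) and ERBB genes (0.28 to -0.04) changed sign too. The medians of integrin and glycolysis genes moved from 0.90 to 0.34 and from 0.65 to 0.23.

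**Figure D2:**
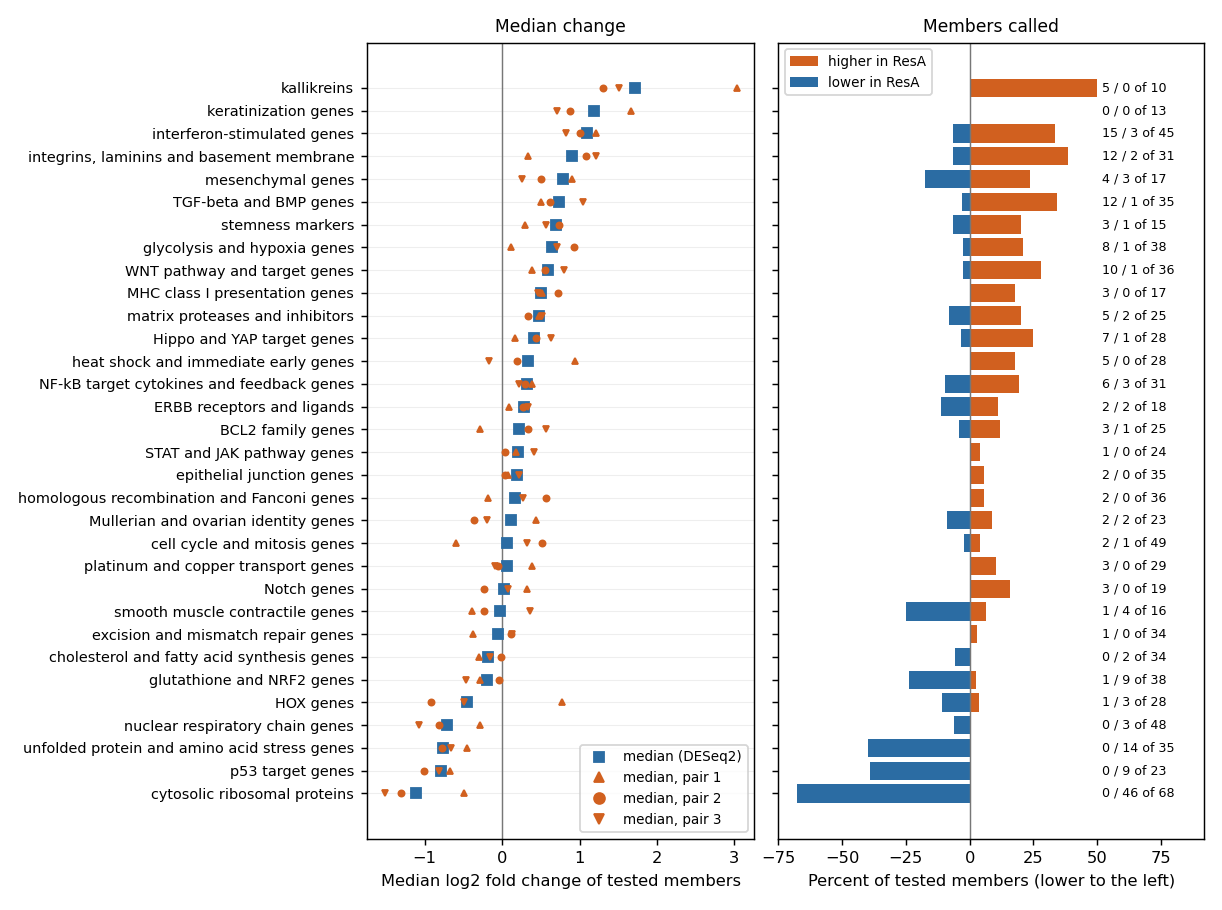
Left, median log2 fold change (ResA minus OVCAR4) of the tested members of each list from DESeq2 (square) and between libraries of the same replicate number (triangles and circle). Right, percent of tested members called higher or lower, with the counts at the edge, for the 32 lists with at least 10 tested members. Cytosolic ribosomal proteins (46 of 68 lower), amino acid stress genes (14 of 35 lower) and p53 targets (9 of 23 lower) lie at the bottom, and kallikreins (5 of 10 higher) at the top.

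Kallikreins, secreted serine proteases encoded side by side on chromosome 19, had 5 of 10 tested members higher in ResA and 0 lower, with a median log2 of 1.72. With replicate 2 or 3 left out 3 or 2 were higher, by edgeR 2 were, and without ResA replicate 1 and the replicate term 5 were higher and 1 lower. KLK6 had 35.1, 59.0 and 52.1 counts in OVCAR4 and 776, 568 and 501 in ResA (log2 3.67, SE 0.42, adjusted p = 5.72e-16). KLK10, already expressed in OVCAR4, had 2411, 1883 and 2185 counts against 4200, 5574 and 6204 (log2 1.29, SE 0.32). KLK8 (log2 2.14) and KLK11 (5.04, from 0.836, 0 and 0 counts) were also called, and KLK5 and KLK6 overlap a further annotated locus. KLK5 reached 537 TPM and KLK6 638 TPM in the PEO lines. EHF, an epithelial ETS factor, had 192, 132 and 140 counts in OVCAR4 and 1440, 1881 and 2117 in ResA (log2 3.55, SE 0.36). Together with ELF3 (log2 1.07) it was one of 2 among 35 epithelial junction genes that were called, and the median of that list was 0.19. Of 13 keratinization genes 0 were called, although their median was 1.18. ResA replicate 1 was the highest ResA library for 7 of the 13.

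Matrix and adhesion genes moved in both directions. Of 31 integrin, laminin and basement membrane genes, 12 were higher and 2 lower, with a median of 0.90. ITGB3, which pairs with the alpha-V subunit to bind vitronectin, had 1420, 739 and 839 counts in OVCAR4 and 4688, 21834 and 22034 in ResA (log2 3.86, SE 0.55, adjusted p = 3.03e-10), so the ResA library that stood apart was here the lowest of the line. ITGB2, the beta subunit of leukocyte integrins, had 24.3, 28.0 and 27.3 counts against 175, 241 and 210 (log2 2.97). ITGB6, an epithelial partner of alpha-V, had 473, 247 and 314 counts against 1125, 1855 and 2237 (log2 2.34). All 3 beta subunits were higher in each ResA library. With replicate 2 or 3 left out 4 members of the list were higher and 2 lower, by edgeR 1 was higher and 1 lower, and without ResA replicate 1 and the replicate term 20 were higher and 2 lower.

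LAMA3, an alpha chain of epithelial laminin, fell from 48103, 39707 and 43274 counts to 9392, 15558 and 19732 (log2 -1.61, SE 0.35, adjusted p = 0.000159). NID2, which links laminin to collagen IV, fell from 109, 137 and 114 counts to 5.77, 1.65 and 0.758 (log2 -5.69, SE 0.82). Among mesenchymal genes 4 of 17 were higher and 3 lower, against 5 and 5 without ResA replicate 1 and the replicate term. TNC, a matrix glycoprotein of remodelling tissue, had 2755, 3566 and 3351 counts in OVCAR4 and 186, 289 and 278 in ResA (log2 -3.70, SE 0.30, adjusted p = 2.23e-32). COL6A1, a collagen VI chain, had 35.1, 83.9 and 36.0 counts against 297, 256 and 191 (log2 2.36, SE 0.47). LUM, a small leucine-rich proteoglycan and a fibroblast marker, had 92, 35.7 and 43.4 counts against 155, 711 and 523 (log2 2.94), while the fibroblast markers COL3A1, POSTN and PDGFRB stayed below 0.1 TPM. The 10 fibroblast markers summed to 4.02 to 5.23 TPM in OVCAR4 and 19.5 to 31.3 TPM in ResA. Among them THY1 was at 9.96, 0.8 and 0.669 TPM in ResA against 0.332, 0.272 and 0.208 TPM (adjusted p = 0.0693), and COL1A1 was at 2 to 3.19 TPM in OVCAR4 and 3.14 to 4.27 TPM in ResA. Whether LUM came from a few cells of another kind or from all cells cannot be read from bulk RNA, where fewer cells of a type and less RNA per cell cannot be told apart.

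Of 16 smooth muscle contractile genes 4 were lower and 1 higher. MYL9, the regulatory light chain of myosin, had 4406, 6580 and 5546 counts in OVCAR4 and 493, 436 and 489 in ResA (log2 -3.53, SE 0.31, adjusted p = 2.05e-26). TAGLN, an actin-binding protein, had 11806, 11292 and 10060 counts against 2297, 3789 and 3902 (log2 -1.77, SE 0.33). ACTA2 and LMOD1 fell by 1.82 and 1.27 on the log2 scale, and MYLK, the kinase that acts on MYL9, rose by 1.05.

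Proteases and their inhibitors comprised 5 higher and 2 lower of 25. MMP7, a matrix metalloproteinase of epithelia, had 496, 149 and 261 counts in OVCAR4 and 2261, 4828 and 5063 in ResA (log2 3.85, SE 0.50, adjusted p = 3.35e-12). TIMP3, an inhibitor of metalloproteinases, fell from 5719, 4795 and 5412 counts to 1195, 1762 and 2068 (log2 -1.70, SE 0.33).

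Interferon-stimulated genes encode antiviral and antigen-processing proteins that interferons induce. Of 45 tested, 15 were higher and 3 lower in ResA, and the median was 1.09, or 0.57 on the TPM scale after the shift. ResA replicate 1 was the highest ResA library for 34 of the 45. MX1, an antiviral GTPase, had 17.6, 26.4 and 14.9 counts in OVCAR4 and 428, 125 and 123 in ResA (log2 3.31, SE 0.58, adjusted p = 8.48e-07). IFIT2, which binds viral RNA, had 77.8, 69.9 and 74.5 counts against 450, 278 and 290 (log2 2.17, SE 0.39). Both genes also separated the lines in the 2 ResA libraries that resembled each other.

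SAMD9 had 594, 66.9 and 74.3 counts in ResA against 63.6, 9.32 and 24.8 in OVCAR4 (log2 2.56, SE 0.53), over 4-fold higher in replicate 1 than in the other ResA libraries. OAS1, which senses double-stranded RNA, was listed at 0 in all OVCAR4 libraries and at 128, 3.31 and 3.79 counts in ResA, so its level rested on 1 library. MX1, OAS1 and SAMD9 reached 330, 155 and 110 TPM in the PEO lines. MX2, related to MX1, went the other way, from 87.0, 90.1 and 74.5 counts to 4.81, 0 and 0.758 (log2 -5.95, SE 0.99, adjusted p = 1.5e-07). The other lower members were more abundant. IFITM3 was at a mean of 519 TPM in OVCAR4 and 168 TPM in ResA (log2 -2.12, SE 0.50). IFITM1 was at 38.2 and 15.3 TPM (log2 -2.22, SE 0.66), with overlapping libraries. Without ResA replicate 1 and without the replicate term, 20 of these genes were called higher and 7 lower with a median of 0.75, beside 3194 higher and 3219 lower among 16326 genes in that fit. By edgeR 2 were higher, and with replicate 2 or 3 left out 5 or 6 were.

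NF-kB target cytokines and feedback genes had 6 of 31 higher and 3 lower, and their median of 0.32 changed sign on the TPM scale (-0.06). The chemokines within the list were split. IL8 (CXCL8) had 159, 91.6 and 177 counts in OVCAR4 and 735, 2352 and 2428 in ResA (log2 3.56, SE 0.47, adjusted p = 1.01e-11). CXCL1, which like IL8 draws neutrophils through CXCR2, had 204, 230 and 220 counts against 1574, 1968 and 2245 (log2 3.13, SE 0.31). CCL2, which draws monocytes, had 1259, 1949 and 2228 counts in OVCAR4 and 150, 107 and 166 in ResA (log2 -3.67, SE 0.35, adjusted p = 3.44e-22). IL8 and CXCL1 were thus higher and CCL2 lower in every ResA library, while CXCL2, CXCL3, CXCL5 and CXCL6 of the list were not called. BIRC3, an inhibitor of apoptosis, had 170, 157 and 133 counts against 495, 782 and 1159 (log2 2.33, SE 0.41), and ICAM1 and IL32 fell by 0.84 and 1.1. IL6 had 11.7, 26.4 and 22.3 counts against 78.9, 79.3 and 62.2 (log2 1.93, SE 0.63, adjusted p = 0.0242). Leaving out replicate 2 or 3 gave 3 higher and 1 lower, by edgeR 1 and 1, and without ResA replicate 1 and the replicate term 8 and 3. In that last fit 3194 genes were higher and 3219 lower among all 16326.

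The promoters of IL8, CXCL1 and F3 are shown as examples of steady genes with a motif of the NF-kB type near the start. Promoter windows of 250 bases before to 50 after the transcription start were taken from RefSeq (GRCh38.p14) and searched on both strands for GGANTTTCC, where N is any base. It was present in 577 of 35116 promoters of all genes (1.64%), in 13 of 28 list members with a window in 5 of the 8 called ones and in 4 of 135 steady genes with a window. Of the 4 steady genes, IL8, CXCL1 and F3 rose, and LTB, a lymphotoxin subunit with the match on the opposite strand, fell by 3.94 on the log2 scale. Capitals mark the match, 78 bases before the start in CXCL1 (plus strand, chr4:73869143-73869442), 91 before it in IL8 (plus strand, chr4:73740319-73740618) and 187 before it in F3 (minus strand, chr1:94541710-94542009), the Hippo target and clotting initiator described below.
CXCL1: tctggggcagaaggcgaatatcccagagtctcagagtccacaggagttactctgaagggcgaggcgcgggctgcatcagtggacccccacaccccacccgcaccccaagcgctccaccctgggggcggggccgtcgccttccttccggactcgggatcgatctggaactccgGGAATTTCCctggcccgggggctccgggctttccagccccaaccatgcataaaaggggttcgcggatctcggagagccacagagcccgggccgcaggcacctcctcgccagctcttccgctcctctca
IL8: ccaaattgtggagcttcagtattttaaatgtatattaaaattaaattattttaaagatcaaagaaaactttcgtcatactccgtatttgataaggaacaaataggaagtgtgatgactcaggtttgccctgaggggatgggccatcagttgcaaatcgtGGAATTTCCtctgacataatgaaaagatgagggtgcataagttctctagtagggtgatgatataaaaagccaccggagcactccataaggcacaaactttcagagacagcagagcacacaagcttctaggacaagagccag
F3: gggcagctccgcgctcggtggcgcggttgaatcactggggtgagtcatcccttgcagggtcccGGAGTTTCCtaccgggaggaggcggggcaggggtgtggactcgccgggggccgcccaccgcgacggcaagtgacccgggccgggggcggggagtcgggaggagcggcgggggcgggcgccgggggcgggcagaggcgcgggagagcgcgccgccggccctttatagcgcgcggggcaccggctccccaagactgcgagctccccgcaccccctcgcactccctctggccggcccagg
These matches describe letters in the reference and carry no measurement of binding.

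MHC class I presentation genes had 3 of 17 higher and 0 lower, and 0 were called by edgeR or with replicate 2 or 3 left out. HLA-B had 611, 553 and 535 counts in OVCAR4 and 878, 1753 and 1231 in ResA (log2 1.13, SE 0.35), and NLRC5, the transactivator of these genes, rose by 1.6. Near-identical HLA genes can share reads. Among 24 STAT and JAK pathway genes, IL6ST, the common receptor subunit of the IL6 family, was called alone, with 2062, 1550 and 1324 counts against 2248, 4117 and 4705 (log2 1.13, SE 0.40, adjusted p = 0.0409).

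Of 35 tested genes that cells use to cope with amino acid shortage and misfolded protein, 14 were lower in ResA and 0 higher, with a median of -0.76, and the medians between same-numbered libraries were -0.46, -0.78 and -0.66. ASNS, asparagine synthetase, had 19610, 20800 and 28897 counts in OVCAR4 and 4094, 4580 and 3738 in ResA (log2 -2.46, SE 0.31, adjusted p = 9.15e-13). TRIB3, a pseudokinase induced by the factor ATF4, had 1801, 3742 and 3757 counts against 639, 710 and 504 (log2 -2.27, SE 0.37). PHGDH, the first enzyme of serine synthesis, had 9086, 11432 and 11255 counts against 2453, 3184 and 2778 (log2 -1.92, SE 0.28). The later serine enzymes PSAT1 and PSPH, the one-carbon enzymes SHMT2 and MTHFD2, and ATF4 itself (log2 -1.36, SE 0.38) were called lower too.

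The endoplasmic reticulum chaperone HSPA5 fell by 0.86, and its TPM ranges overlapped between the lines. Further steady decreases outside the list were ALDH1L2, a one-carbon enzyme, with 2093, 1688 and 1988 counts against 120, 183 and 199 (log2 -3.54), and PCK2 (log2 -2.51). Without ResA replicate 1 and the replicate term 21 members were lower and 6 higher. By edgeR 2 were lower and 0 higher, and with replicate 2 or 3 left out 3 were lower.

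The motif TGATGNAA, the composite site of C/EBP and ATF factors with N for any base, was searched in the same promoter windows on both strands. It was present in 1270 of 35116 promoters (3.62%), in 6 of 32 list members with a window and in 3 of the 11 called ones, ASNS, CHAC1 and SLC3A2. Among steady genes with a window, 11 of 135 held it, and most of these were higher in ResA. ASNS and IQGAP2 were lower, while KLF7, KLK6, MANEAL, MX1, PPFIBP2, PPP2R2C, PTPRM, RNF182 and SH3BGRL were higher. The ASNS promoter is shown as the clearest member of the group (minus strand, chr7:97872359-97872658), with the match, 68 bases before the start, in capitals.
ASNS: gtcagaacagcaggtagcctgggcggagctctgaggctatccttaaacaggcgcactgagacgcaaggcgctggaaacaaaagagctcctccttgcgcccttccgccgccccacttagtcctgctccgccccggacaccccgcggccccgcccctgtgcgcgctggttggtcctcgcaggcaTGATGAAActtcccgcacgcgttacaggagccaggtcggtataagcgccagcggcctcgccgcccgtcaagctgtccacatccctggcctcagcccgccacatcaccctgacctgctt

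Targets of p53, the factor that arrests or kills cells after DNA damage, were lower in ResA for 9 of 23 and higher for 0, with a median of -0.79 and same-numbered medians of -0.68, -1.01 and -0.81. BBC3 (PUMA), a pro-apoptotic BCL2 family member, had 202, 590 and 200 counts in OVCAR4 and 57.7, 10.7 and 10.6 in ResA (log2 -3.93, SE 0.67, adjusted p = 3.18e-07). CDKN1A, the p21 cell cycle inhibitor, had 1653, 2944 and 1660 counts against 821, 828 and 604 (log2 -1.43, SE 0.32, adjusted p = 0.000313). FAS, a death receptor, had 757, 663 and 628 counts against 255, 217 and 308 (log2 -1.40, SE 0.34). The 3 genes had no ResA library above any OVCAR4 library.

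MDM2, which degrades p53, fell by 1.09, SESN1 by 1.61 and PLK3 by 1.96. GDF15, a secreted stress cytokine, had 2858, 18209 and 8224 counts against 5963, 1974 and 1309 (log2 -1.77, adjusted p = 0.0458), and here the lines overlapped. Without ResA replicate 1 and the replicate term 15 of the 23 were lower and 2 higher. By edgeR 0 were called, and with replicate 2 or 3 left out 1 was.

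**Figure D3:**
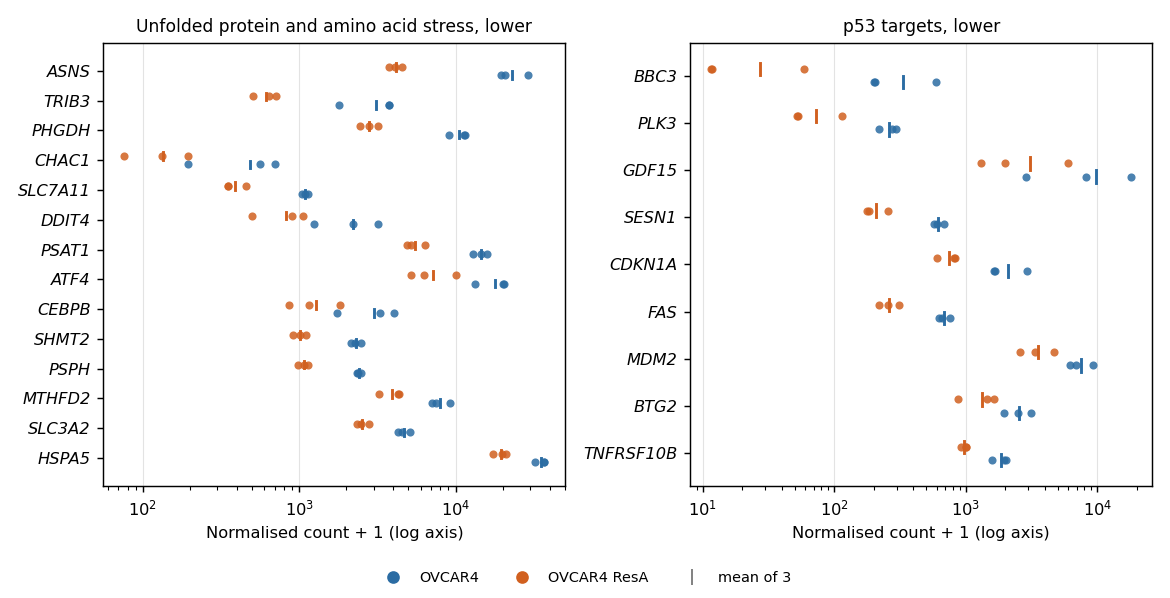
Normalised count plus 1 on a log axis, for each library of both lines, of the 14 called members of the amino acid and unfolded protein stress list (left) and the 9 called p53 targets (right), with a bar for the mean of 3. ASNS, TRIB3 and PHGDH are separated in every library, while GDF15 and CEBPB overlap between the lines and the nearest libraries for CHAC1 have 195 and 194 counts.

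Cytosolic ribosomal protein genes, which encode the protein part of the ribosome, were lower in ResA for 46 of 68 tested members and higher for 0, with a median of -1.11. The medians between same-numbered libraries were -0.49, -1.31 and -1.52, so the size differed between replicates, and ResA replicate 1 was the highest ResA library for 54 of the 68. RPL7A had 38041, 50440 and 54497 counts in OVCAR4 and 14956, 12237 and 12623 in ResA (log2 -1.83, SE 0.31, adjusted p = 3.67e-07), and related pseudogenes can share its reads. Mitochondrial ribosomal RNA was higher in OVCAR4 replicates 2 and 3 than in their ResA counterparts and lower in OVCAR4 replicate 1, and with its share in the model in place of the replicate term the median, less that of all genes, was -0.67, against -1.10 with neither term. With replicate 2 or 3 left out 3 or 1 members were called lower, without ResA replicate 1 and the replicate term 66 were, and by edgeR 0 were. Nuclear genes of the respiratory chain had a median of -0.71, with 3 of 48 lower. NDUFS5 and CYC1 fell by 1.29 and 1.15, and 32 were lower without ResA replicate 1 and the replicate term.

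Genes of thiol chemistry were mostly lower among those called. Of 38 glutathione and NRF2 genes 9 were lower and 1 higher, while the median was -0.19. NQO1, a quinone reductase and classical NRF2 target, had 2761, 3200 and 3883 counts in OVCAR4 and 1200, 1266 and 1169 in ResA (log2 -1.42, SE 0.30, adjusted p = 9.66e-05). TXN, thioredoxin, had 17507, 21102 and 21799 counts against 10413, 5532 and 4772 (log2 -1.63, SE 0.37). SLC7A11, the cystine importer that feeds glutathione synthesis, had 1089, 1145 and 1036 counts against 348, 352 and 459 (log2 -1.51, SE 0.32). GSTM2, a glutathione transferase, had 37.6, 76.1 and 75.7 counts against 20.2, 9.92 and 7.58 (log2 -2.39, SE 0.75). By edgeR 0 of this list were called, and with replicate 2 or 3 left out 0 were.

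Platinum and copper transport genes, which include the pumps that carry cisplatin, had 3 of 29 higher and 0 lower, and 0 were called by edgeR or with replicate 2 or 3 left out. ATP7A, a copper-exporting ATPase, had 150, 143 and 113 counts in OVCAR4 and 314, 711 and 716 in ResA (log2 2.02, SE 0.43, adjusted p = 9.85e-05), and it lies on the X chromosome. ABCC3 (MRP3), an exporter of conjugates, had 20.1, 31.1 and 42.2 counts against 141, 71.9 and 86.4 (log2 1.68, SE 0.60, adjusted p = 0.0452). The median of the list was 0.06 and was -0.07 on the TPM scale. Without ResA replicate 1 and the replicate term 7 were higher and 7 lower, with a median of 0.01.

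DNA repair lists were close to the background. Of 36 homologous recombination and Fanconi genes 2 were higher, BRCA1 with 586, 427 and 470 counts against 832, 1398 and 1507 (log2 1.30, SE 0.37, adjusted p = 0.00814) and BRIP1, its helicase partner, with a log2 of 1.42. Of 34 excision and mismatch repair genes 1 was higher, the translesion polymerase POLK (log2 1.03, adjusted p = 0.0474). None of these 3 was called when replicate 2 or 3 was left out. Cell cycle and mitosis genes had 2 of 49 higher and 1 lower. Within the BCL2 family and its partners, 3 of 25 were higher, among them BIRC3, and BBC3 was the 1 lower.

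WNT pathway and target genes had 10 of 36 higher and 1 lower, with a median of 0.59. PORCN, the acyltransferase that WNT ligands need for secretion, had 211, 343 and 274 counts in OVCAR4 and 2529, 1603 and 1669 in ResA (log2 2.80, SE 0.37, adjusted p = 1.52e-11), and it too lies on the X chromosome. AXIN2, a feedback target of beta-catenin, had 113, 51.3 and 95.6 counts against 370, 491 and 452 (log2 2.38, SE 0.43, adjusted p = 2.64e-06). The ligands WNT3, WNT7B, WNT10A and WNT11 rose by 1.41, 1.48, 2.55 and 2.42. None of these ligands was called when replicate 2 or 3 was left out. WNT3, WNT10A and WNT11 were highest in ResA replicate 1, and WNT10A and WNT11 reached 35.9 and 16.6 TPM in the PEO lines. The remaining higher members were the receptors FZD7 (1.15) and FZD8 (1.71), the antagonist SFRP1 (1.82) and RNF43 (1.48), a ligase that removes WNT receptors. TCF7L1, a transcriptional repressor of the pathway, fell by 1.59. Without ResA replicate 1 and the replicate term 17 were higher and 3 lower. With replicate 2 or 3 left out 2 or 3 were higher, and by edgeR 1 was.

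TGF-beta and BMP genes had 12 of 35 higher and 1 lower, with a median of 0.73. INHBB, the activin beta-B subunit, had 176, 211 and 168 counts in OVCAR4 and 3236, 1843 and 1931 in ResA (log2 3.62, SE 0.35, adjusted p = 2.93e-22). PMEPA1, a feedback inhibitor, had 234, 317 and 179 counts against 1596, 965 and 1231 (log2 2.39, SE 0.38). BMP4 rose from 1.67, 0 and 0 counts to 37.5, 68.6 and 72.0, and its antagonist GREM1 from 10.0, 0 and 1.24 to 38.5, 93.4 and 121. With replicate 2 or 3 left out 5 or 4 were higher, by edgeR 3 were, and without ResA replicate 1 and the replicate term 19 were higher and 2 lower.

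Hippo and YAP target genes had 7 of 28 higher and 1 lower, with 4 higher when replicate 2 or 3 was left out, 3 by edgeR, and 14 higher and 2 lower without ResA replicate 1 and the replicate term. ANKRD1 had 1908, 1094 and 1566 counts in OVCAR4 and 11116, 8993 and 10067 in ResA (log2 2.75, SE 0.29, adjusted p = 3.35e-18). F3, tissue factor, had 824, 631 and 763 counts against 4207, 3651 and 4715 (log2 2.50, SE 0.29). NT5E (CD73), which makes adenosine, had 205, 112 and 129 counts against 562, 1219 and 1284 (log2 2.75, SE 0.46). These 3 targets were higher in every ResA library, while AXL, a receptor tyrosine kinase of the same list, fell by 1.41. Notch genes had 3 of 19 higher, led by DTX4, a regulator of Notch (23.6 to 41.0 counts in OVCAR4, 345 to 397 in ResA, log2 3.63, SE 0.43).

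Among growth factor genes, EGFR rose by 1.31 and its relative's ligand NRG1 fell by 1.19, within a list of 18 ERBB genes with 2 higher and 2 lower. DUSP4, a phosphatase of MAP kinases, was at 0 in every OVCAR4 library and at 57.7, 8.26 and 15.9 counts in ResA. The mean of the ResA libraries was at least 7.52-fold higher against a floor of 3 counts per library, and most of that mean came from replicate 1. DUSP4 reached 24.5 TPM in the PEO lines. DUSP6, its relative, fell by 1.44. Heat shock and immediate early genes had 5 of 28 higher, with DUSP1 at 1471, 1044 and 2458 counts against 7125, 7420 and 5859 (log2 2.12, SE 0.38). Glycolysis and hypoxia genes had 8 of 38 higher and 1 lower, with a median of 0.65. Leaving out replicate 2 or 3 gave 2 or 3 higher, by edgeR 1 was, and without ResA replicate 1 and the replicate term 20 were higher and 2 lower. CA12, a carbonic anhydrase, rose by 2.12 (SE 0.31) and BNIP3, which drives mitochondrial autophagy, by 1.99 (SE 0.35).

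Stemness markers had 3 of 15 tested higher and 1, SOX2, lower. CD44, a hyaluronan receptor, had 66.1, 26.4 and 33.5 counts in OVCAR4 and 1111, 469 and 629 in ResA (log2 4.15, SE 0.37, adjusted p = 1.29e-26), and it was at up to 324 TPM in the PEO lines. POU5F1 (OCT4) had 29.3, 37.3 and 31.0 counts against 493, 126 and 127 (log2 2.62, SE 0.56), and its pseudogenes can share reads. ALDH1A3, an aldehyde dehydrogenase, had 73.6, 59.0 and 63.3 counts against 2523, 93.4 and 109 (log2 1.98), so most of its level came from ResA replicate 1. PROM1 (CD133) had 2118, 1514 and 1873 counts against 1084, 1089 and 1292 (log2 -0.66, SE 0.30, adjusted p = 0.155), and ALDH1A1 had 54.4, 97.9 and 98.1 against 253, 174 and 146 (log2 1.20, SE 0.49, adjusted p = 0.0944). Neither passed the test.

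Of 23 Müllerian and ovarian identity genes 2 were higher (LHX1 and GATA6) and 2 lower (FOLR1 and WFDC2), and the median of 0.11 changed sign on the TPM scale. HOX genes had 1 of 28 higher, HOXA13 with 5.02, 3.11 and 6.21 counts against 36.6, 57.8 and 78.9 (log2 3.53, SE 0.81), and 3 lower, among them HOXB9 (log2 -1.11). SOX17 (log2 0.11, adjusted p = 0.896) and CEBPA (0.82, adjusted p = 0.259) did not pass the test, and ANXA4, an annexin, rose by 1.30. ZNF750 and CASP14 had too few counts for an adjusted p. Cholesterol and fatty acid synthesis genes had 0 of 34 higher and 2 lower, and 0 of 3 tested cancer-testis genes were called.

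Position along the genome was examined over 11774 genes with a mean count of at least 50 and a RefSeq GRCh38.p14 coordinate. The X chromosome stood out. Its 379 genes had a median log2 of 0.83 (quartiles 0.37 and 1.26), 332 were above 0, 129 were called higher (34.0%) and 5 lower. On the autosomes the median was -0.03, with 5.89% called higher and 5.63% lower. Between same-numbered libraries the X median was 0.71, 0.88 and 0.90, and less the median of all genes it was 0.74 on the TPM scale, 0.72 with the mitochondrial ribosomal RNA share in the model and 0.90 without ResA replicate 1. No DNA was measured, so the copy number of these regions is not known from these data. By edgeR, 10 X-linked genes were higher and 1 lower. ARMCX2 was a steady decrease among X-linked genes, from 1570, 1482 and 1769 counts to 227, 148 and 158.

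Sliding windows of 25 neighbouring genes, 11222 in all, were joined wherever their median exceeded 0.5 in either direction, which gave 24 regions, 9 higher and 15 lower. In 9 of these regions the medians between same-numbered libraries were all over 0.3 in size, while their shared sign was part of the choice. After X, the higher region with the most genes was on chromosome 17 from UBE2Z to GRB2 (chr17:48908407-75405678), where 147 genes had a median of 0.55 and 125 were above 0. Chromosome 3 from EIF4E3 to KIAA2018 (chr3:71659363-113696642) had a median of 0.51 over 66 genes.

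The lower regions were led by the end of the long arm of chromosome 9 from STOM to C9orf69 (chr9:121338987-136118875), with a median of -0.66 over 137 genes, 33 called lower and 0 higher. RPL7A lies in it. Smaller lower regions were on chromosome 7 from NDUFA5 to CHCHD3 (chr7:123536997-133082090, -0.54, 32 genes), chromosome 1 from AGO3 to CTPS1 (-0.51, 52 genes), chromosome 14 from PAX9 to PSMC6 (-0.45, 43 genes) and chromosome 20 from ADA to NCOA3 (-0.48, 32 genes) and from CSE1L to TFAP2C (-0.42, 33 genes). The windows were chosen by their own medians, so these values are a description.

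**Figure D4:**
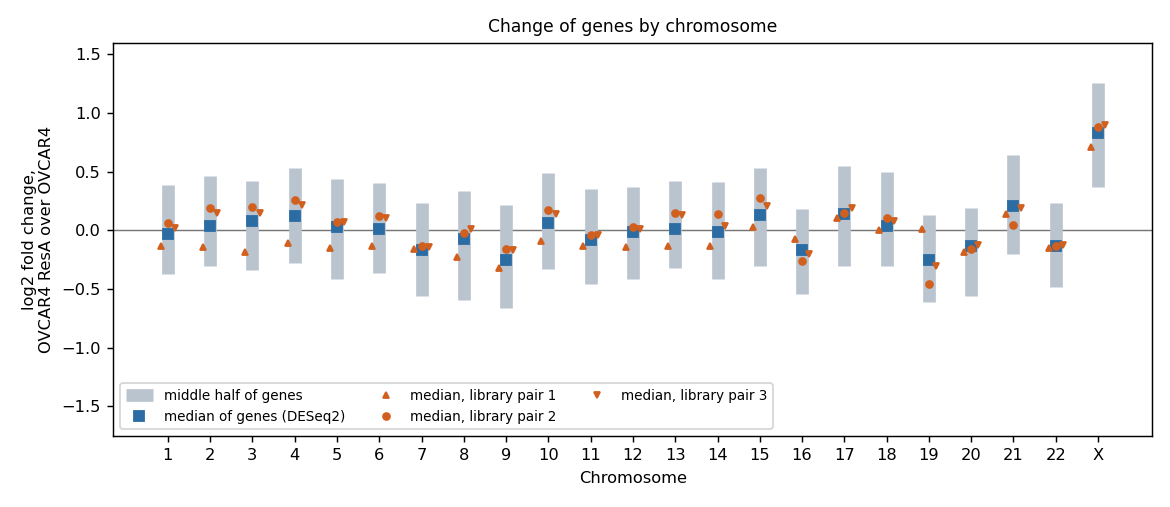
Log2 fold change (ResA minus OVCAR4) of genes by chromosome. Grey bars span the quartiles, squares are the DESeq2 median, and triangles and circles are medians between libraries of the same replicate number. The X chromosome lies above the others with a median of 0.83 over 379 genes, while the autosomes together have a median of -0.03.

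ResB, selected separately from the same parent, was used to test which of these features differed between the derivatives. The direct test of ResB against ResA called 5218 of 15911 genes (32.8%), 2585 higher and 2633 lower in ResB. Of the 190 steady genes of ResA with an adjusted p in that test, 147 differed between the resistant lines. Steady genes were chosen by the same ResA libraries that enter this test, which by itself raises that count. Both lines were compared with the same OVCAR4 libraries, so their values against OVCAR4 are given only side by side.

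IDO1 was at 20.6 TPM in ResA, 0.127 TPM in ResB and 0.460 TPM in OVCAR4, and the direct log2 difference was -7.39 (SE 0.50, adjusted p = 8.23e-47). PIK3CG was at 2.36 TPM in OVCAR4, 0.0385 TPM in ResA and 4.17 TPM in ResB (direct log2 6.79, SE 0.54). C3orf55 (direct log2 7.78) and QPRT (5.52) likewise were lower than OVCAR4 in ResA while their log2 against OVCAR4 in ResB was 0.41 and 0.63, neither called. TNC (direct log2 3.17) and CCL2 (3.11) were called lower in ResA and not in ResB as well. NID2 was lower than OVCAR4 in ResA and higher in ResB (log2 2.81, direct 8.52). MMP7 was at 311 TPM in ResA, 28.3 in ResB and 16.6 in OVCAR4 (direct log2 -3.51, SE 0.13). F3 and NT5E were 2.97 and 4.41 log2 units lower in ResB than in ResA. Kallikreins as a list had 7 of 10 lower in ResB than in ResA and 0 higher.

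FBN2, MYL9 and SOX2 were lower in both resistant lines and lower still in ResB. MYL9 was at 276 TPM in OVCAR4, 34.4 TPM in ResA and listed at 0 in ResB, and FBN2 was at 36.3, 1.35 and 0.00595 TPM (direct log2 -7.92, SE 0.90). ALDH1A1 was at 1.82 TPM in OVCAR4, 6.05 in ResA and listed at 0 in ResB, and PROM1 was at 26.8, 22.9 and 1.26 TPM (direct log2 -4.31, SE 0.18). Among stress genes ASNS, TRIB3 and PHGDH were 1.14, 1.70 and 1.21 log2 units higher in ResB than in ResA.

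Other changes did not differ past the threshold in the direct test. APOL1 had a direct log2 of 0.22 (SE 0.13, adjusted p = 0.226), DCAF12L1 of 0.38 (SE 0.16, 0.059), ITGB3 of -0.14 (SE 0.11, 0.375) and CD44 of -0.55 (SE 0.23, 0.0513). Against OVCAR4 these genes had log2 values in ResB of 5.80, 5.91, 3.69 and 3.56. For genes that ResA had nearly lost, such as DNER (direct -0.54, SE 1.18) and ROBO1 (-0.48, SE 0.97), the standard errors were too wide to compare the lines. The X chromosome had a median of 0.76 in ResB against OVCAR4 and of -0.01 in the direct comparison, and the lower region of chromosome 9 had medians of -0.73 and -0.04. The lower region of chromosome 7 had a median of 0.28 in ResB against OVCAR4 and 0.75 in the direct comparison. In it 27 of 32 genes were called higher in ResB, against 2176 of the 11774 genes examined by position. This region was chosen for low values in the same ResA libraries, which by itself raises its direct median and that count.

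**Figure D5:**
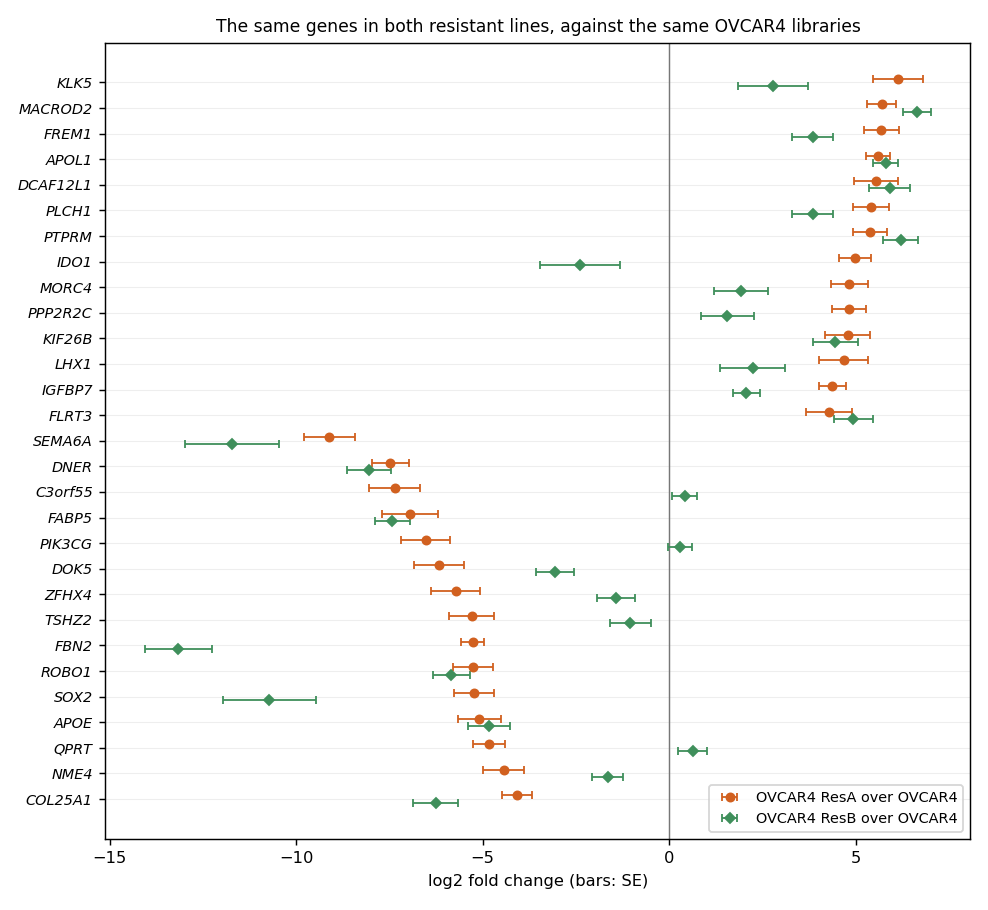
Log2 fold change against OVCAR4 for 29 of the 30 largest steady changes of ResA, in ResA and in ResB, with standard errors. IDO1, C3orf55, PIK3CG and QPRT lie far apart between the resistant lines, while APOL1 and DCAF12L1 lie close together; both lines share the OVCAR4 libraries.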

How the data were processed

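Libraries were prepared by the authors from poly(A) RNA and sequenced as 1 pool. The authors quantified reads with salmon, run within an nf-core pipeline on GRCh38. The expected counts deposited by the authors were estimated counts per gene, not normalised. The deposited TPM values were scaled by the authors per gene length and to a fixed sum, so they carry no depth. The strand setting was not given in the sources used here.

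Expected counts were rounded and tested in R 4.3.3 with DESeq2 1.42.0 (Wald test, median-of-ratios factors, replicate number and line as terms, no filter), as the study's methods state. Alternatives used edgeR 4.0.16, limma 3.58.1 on log2(TPM + 1), TMM factors, filters and left-out replicates. The scripts were tested on simulated data. Steady genes were those called in the fit on all 6 libraries and in all 3 fits without a replicate number, with non-overlapping libraries and a mean of at least 100. Genes named were the 15 largest steady increases and 15 largest steady decreases, up to 4 steady genes per list (otherwise up to 2 called genes), and 12 genes of interest to the study; other called list members and steady genes were chosen after their values were seen. The members and lists were chosen with earlier results of these data known. Same-numbered libraries deviated together in ResB against ResA (correlations over 11387 genes 0.832, 0.690 and 0.671). Replicates 2 and 3 also did so across numbers (0.562 and 0.763). The data thus set replicate 1 of both lines apart and did not pair numbers 2 and 3. Without the block that comparison gave 2094 calls. The 13 mitochondrial mRNAs of 1 list did not match any symbol in the table. Some genes that the naming rule selects are not reported here.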

Additional observations from a re-analysis of the deposited data

Results flagged for a closer look

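Of 88 named genes called in ResA against OVCAR4, 58 also differed between ResB and ResA in the direct DESeq2 test, 25 higher and 33 lower in ResB. Over all tested genes 32.8% differed. Many named genes were chosen by their values in the same ResA libraries, which by itself raises the count. The log2 difference of ResB minus ResA follows each gene. Among genes higher in ResA than in OVCAR4, those lower in ResB than in ResA were KLK5 (-3.19), FREM1 (-1.85), PLCH1 (-1.54), IDO1 (-7.39), MORC4 (-2.95), PPP2R2C (-3.26), LHX1 (-2.50), IGFBP7 (-2.29), KLK6 (-1.62), EHF (-2.41), MX1 (-1.79), IFIT2 (-0.78), IL8 (-2.03), CXCL1 (-2.56), BIRC3 (-0.87), PORCN (-1.36), AXIN2 (-0.85), INHBB (-1.26), PMEPA1 (-1.74), NT5E (-4.41), F3 (-2.97), ITGB2 (-1.03), MMP7 (-3.51), CA12 (-0.89), BNIP3 (-0.94) and DUSP1 (-0.68). Those higher still in ResB were MACROD2 (0.96), PTPRM (0.83), FLRT3 (0.65), COL6A1 (0.72), NLRC5 (0.70), HLA-B (1.21), ABCC3 (2.45), BRCA1 (0.55), DTX4 (1.40), IL6 (1.90) and ANXA4 (0.98).

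Among genes lower in ResA than in OVCAR4, those higher in ResB than in ResA were C3orf55 (7.78), PIK3CG (6.79), DOK5 (3.35), ZFHX4 (4.16), TSHZ2 (4.31), QPRT (5.52), NME4 (2.74), TNC (3.17), CCL2 (3.11), GSTM2 (2.23), BBC3 (1.87), ASNS (1.14), TRIB3 (1.70) and PHGDH (1.21). Those lower still in ResB were FBN2 (-7.92), SOX2 (-5.48), COL25A1 (-2.25), MYL9 (-11.56), TAGLN (-3.24), TXN (-0.33) and LAMA3 (-1.10). For MYL9, FBN2 and SOX2 the ResB libraries were at or near 0, so these fitted differences depend on the model and are no bounds. IDO1, C3orf55, PIK3CG, ZFHX4, TSHZ2 and QPRT each differed by over 4 log2 units both between ResA and OVCAR4 and between ResA and ResB, in opposite directions.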

How the results depend on the processing

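The number of genes called in ResA against OVCAR4 depended on the fit. Against 1784 calls, edgeR gave 219, limma on log2(TPM + 1) 297 and on log2(TPM + 0.1) 251, and limma without a filter 0, with 3723 genes at an unadjusted p under 0.05. More were called with all 33 libraries in one fit (4559) and with the mitochondrial ribosomal RNA share in place of the replicate term (4488, 2085 higher and 2403 lower). On TPM 218 were higher and 79 lower. Leaving out replicates gave 292 to 6413 calls, the lowest without replicate 3, 381 without replicate 2, 6221 without replicate 1, and, with the replicate block also dropped, 6413 without the ResA library of replicate 1 and 3143 without the OVCAR4 library of replicate 1, the last 2 chosen after seeing the data. The cause was not tested. Same-numbered libraries did not deviate together (correlations -0.603, -0.483 and -0.224), so the numbers do not pair them. Without the replicate block 3462 genes were called, to which the fits that drop it are to be compared.

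For ResB against ResA, 5218 calls became 2940 with all 33 libraries, 3326 by unfiltered limma, 2094 without the replicate block, and 1847 to 4308 when a replicate was left out, lowest without replicate 2 and 2917 without replicate 3.

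Named genes gave 1375 values in 15 settings, of which 0 changed sign, 240 lost their call and 15 gained one. Medians of the X chromosome and the 8 other regions kept their sign in their 135 values, and 29 moved in size. The regions were chosen by large medians of one sign, so the kept signs are no independent check. With windows of 15 genes 70 regions joined instead of 24. Low counts limit the genes that ResA or ResB had nearly lost.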

Other observations

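Steady genes outside the lists included further secreted signals, which were chosen here after their values were seen. THBS1, a matrix glycoprotein that restrains vessel growth, had 1306, 461 and 626 counts in OVCAR4 and 2629, 7124 and 9985 in ResA (log2 3.06, SE 0.54, DESeq2 adjusted p = 1.09e-06). STC1, a secreted glycoprotein, had 234, 255 and 269 counts against 2334, 1718 and 1494 (log2 2.85, SE 0.33). C3, the central complement component, had 915, 1573 and 1668 counts against 3474, 11329 and 9086 (log2 2.41, SE 0.32). CX3CL1, a membrane-bound chemokine, had 160, 214 and 169 counts against 815, 1278 and 1303 (log2 2.62, SE 0.33). These 4 genes were also higher than OVCAR4 in ResB (log2 2.37, 2.28, 3.37 and 2.75), against the same OVCAR4 libraries.

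Growth factor receptors and ligands moved as well. FGFR3 had 176, 197 and 192 counts in OVCAR4 and 1934, 1520 and 1083 in ResA (log2 2.97, SE 0.35), and was 2.17 log2 units lower in ResB than in ResA. IGF1R, the receptor for insulin-like growth factors, had 1000, 1016 and 1026 counts against 308, 158 and 189 (log2 -2.28, SE 0.36). VEGFC, a growth factor of lymphatic vessels, had 295, 219 and 304 counts against 49.1, 24.0 and 21.2 (log2 -3.20, SE 0.46). MUC4, a membrane mucin, had 12.5, 23.3 and 22.3 counts against 400, 179 and 254 (log2 3.81, SE 0.54) and was 5.73 log2 units lower in ResB than in ResA. CLDN10, a tight junction protein, had 730, 1230 and 1312 counts against 223, 185 and 191 (log2 -2.41, SE 0.37).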
